A study of Salmo salar with 8 samples.

Results

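The 54 genes described here were abundant in the Atlantic salmon gill at 2 time points and much less abundant at the following 2. They were selected from summed single-nucleus RNA-seq libraries by a threshold on the readout itself. The UMIs (unique molecular identifiers, 1 per captured transcript) of each gene were added over all nuclei of a sample and scaled to the library total of that sample (CPM, UMIs of the gene per 1000000 UMIs). A gene was taken when its lowest value among the 4 samples of T1 and T2 was at least 10 CPM and at least 2 times its highest value among the 4 samples of T3 and T4. Of 34514 genes in the series, 12874 had every T1 and T2 sample at 10 CPM or more, and 59 of these (0.458%) met the ratio. The rule leaves out 5 loci, so that 54 genes remained. The reverse rule, with T3 and T4 high, was met by 62 of 13554 genes (0.457%). The working name for these genes is "off after return to light", which the counts do not bear out, since in each T3 and T4 sample 53 or 54 of the 54 genes had at least 1 UMI. They are called the light-return low genes below.

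Gills came from juvenile salmon (parr at the start) raised in freshwater, with 2 samples at each of 4 time points and durations as the labels give them. T4 fish had passed through constant light, 8 weeks of short photoperiod and 8 weeks of constant light, and then spent 24 h in seawater. T3 fish had the same light history without the seawater. T2 fish were sampled after the 8 weeks of short photoperiod that followed constant light, and T1 fish were parr that had known only constant light. The methods of the study give somewhat shorter times under each light regime at T2 and T3 sampling. The T3 and T4 fish were also the older and later sampled ones, so the return to constant light, age and sampling date cannot be told apart. How many fish made up a sample was not given in the sources used here. The p-values of contrasts between time points measure the spread between these 2 samples per time point. Those for nuclei classes measure how the difference between a class and all other nuclei varied over the 4 T1 and T2 samples.

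Smoltification is the change by which a freshwater parr becomes a smolt able to live in the sea, and a winter-like short photoperiod followed by long days is its natural trigger. The gill carries much of that change. Its ionocytes, rich in mitochondria, pump ions, its pavement cells form the outer sheet over which gas is exchanged, and goblet cells secrete mucus. Gill tissue is also an immune surface holding T cells and myeloid cells such as dendritic cells and macrophages. Interferon signalling in vertebrates runs through transcription factors of the IRF family to antiviral effectors and chemokines, the small secreted proteins that attract leukocytes.

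The 8 libraries held 19709 nuclei and 27390978 UMIs, with 1748 to 3373 nuclei and 2770081 to 4383507 UMIs per sample. Nuclei with 2500 detected genes or more carried 8.43 to 47.0% of a sample's UMIs. Any 2 samples shared at most 0.286% of the smaller one's barcodes. Every gene listed for a sample was found in at least 3 of its nuclei, and an unlisted gene entered as 0. A gene at 0 UMIs over a whole sample may thus have been seen in fewer than 3 nuclei. The level of 3 UMIs, 0.684 to 1.08 CPM, serves as a limit for such a gene. That limit covers counting error only and not this cut. Free RNA was not removed here and doublets were not called.

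A name in the annotation was found for 21 of the genes, and 33 were known by a locus number only. Of the 42 found in the RefSeq table of the Ssal_v3.1 assembly, 39 were protein coding and 3 were long non-coding RNAs. They are ordered here by what is known of their names, an ordering made after the names were seen and given no test. Of the 10 gene lists used further on, interferon response holds irf1-2 of the 54 genes, cytotoxic lymphocyte holds nkl, dendritic or myeloid holds LOC106605366, and the others, antigen presentation and T cell receptor signalling included, hold 0. Names linked with interferon were those of irf1-2, helz2, LOC106587891 (poly [ADP-ribose] polymerase 14-like) and LOC106573916 (ifi44g). Secreted or surface molecules that in mammals attract, arm or mark leukocytes were the chemokines LOC106570861 (C-C motif chemokine 20-like) and cxl10 (C-X-C motif chemokine 10), the antimicrobial peptide gene nkl and LOC106605366 (CD83 antigen-like). Genes for intracellular proteins of mammalian leukocytes were hck, spic and LOC106592320 (GTPase IMAP family member 7-like). A further set comprised the transporters LOC106565344 (GABA transporter 2-like) and s38a3, and enzymes or adaptors including rnt2, gbgt1, LOC106566492 (ptpn18) and LOC106609366 (KCTD5-like).

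Summed over all 54 genes, the level was 1289 and 1403 CPM in the T3 samples and 1073 and 1477 CPM in the T4 samples, against 4549 and 5348 CPM in the T1 samples and 5039 and 5524 CPM in the T2 samples. The median gene stood at 7.53 to 9.22 CPM in T3 and T4 samples, against 33.1 to 37.9 CPM in T1 and T2 samples. The most abundant of the 54 in every sample was LOC106588087. Because the rule fixes the direction, these values describe the selection and were given no test. For single genes, the mean lay between 1.84 and 515 CPM in T3 and T4, against 11.7 to 1860.4 CPM in T1 and T2, and the log2 ratio of the means ran from −4.08 to −1.17 with a median of −1.89. Behind these levels stood 0 to 1922 UMIs per gene and sample in T3 and T4, against 30 to 6887 in T1 and T2. Among the 54 genes, 10 had fewer than 10 UMIs in some T3 or T4 sample, so their low level is poorly resolved. In bulk sums of this kind, fewer cells of a type and less RNA per cell cannot be told apart, which is why the levels within nuclei classes are given further on.

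**Figure D1:**
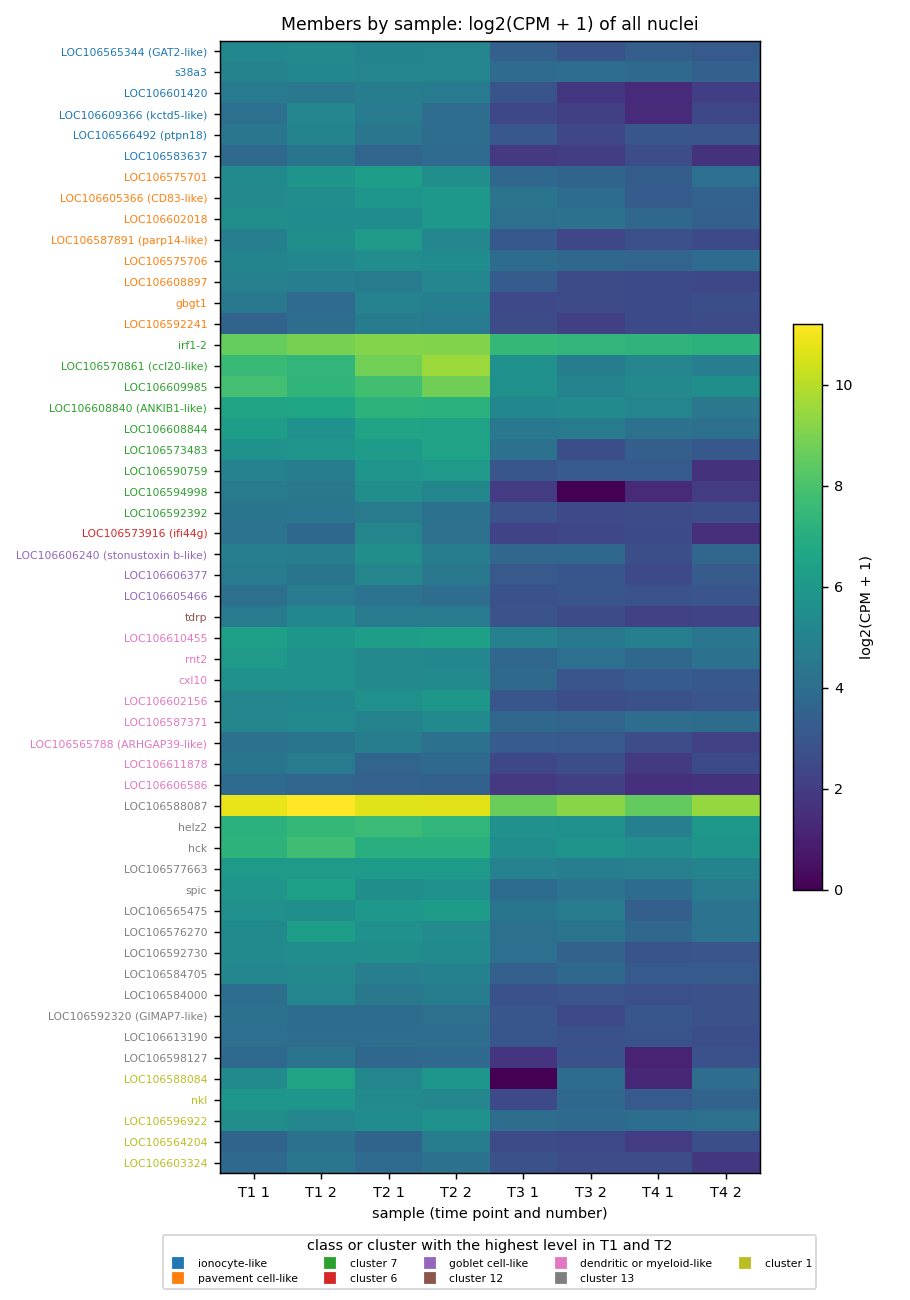
Level of each of the 54 genes (rows) in each of the 8 samples (columns, T1 to T4), as log2(CPM + 1) of UMIs summed over all nuclei. Label colours give the nuclei class or cluster of the highest called level in T1 and T2, as assigned below. The rule makes the 4 right-hand columns darker in every row, and irf1-2, LOC106570861 and LOC106588087 are among the brightest rows, the last with 416, 590.0, 362 and 691 CPM in T3 and T4 samples against 1595 to 2356 CPM in T1 and T2 samples.

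The most abundant of the genes with interferon-linked names was irf1-2, a gene named after interferon regulatory factor 1. In mammals that interferon-induced transcription factor drives antigen presentation and chemokine genes. irf1-2 measured 173, 165, 157 and 147 CPM in T3 samples 1 and 2 and T4 samples 1 and 2, against 373, 484, 552 and 544 CPM in T1 samples 1 and 2 and T2 samples 1 and 2, the order kept for all values below. The 4 low values lay within a narrow band, and T1 sample 1 was the lowest of the high ones. helz2, a helicase that in mammals acts as a nuclear receptor coactivator and is induced by interferon, measured 49.6, 48.2, 27.4 and 61.4 CPM in T3 and T4, against 139.9, 177, 201 and 167 CPM in T1 and T2. LOC106587891 belongs to the enzymes that attach ADP-ribose to proteins, some of which are antiviral in mammals. Its level was 7.49, 4.30, 5.70 and 4.69 CPM in T3 and T4, against 27.3, 46.6, 65.6 and 35.7 CPM in T1 and T2, and its lowest T1 or T2 value was 3.65 times its highest T3 or T4 value. LOC106573916, named after an interferon-induced protein family, had 3.75, 4.30, 4.79 and 1.81 CPM in T3 and T4, against 18.5, 12.8, 33.3 and 16.6 CPM in T1 and T2.

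The chemokine LOC106570861 spread widely among the high samples. In mammals, CCL20 is made by epithelia and attracts dendritic cells and lymphocytes that carry CCR6. This gene measured 49.3, 25.2, 33.3 and 27.1 CPM in T3 and T4 samples, against 188, 163, 451 and 737 CPM in T1 and T2 samples, so that both T2 samples lay above both T1 samples. The level of cxl10, in mammals an interferon-induced attractant of activated T cells, was 13.5, 6.75, 8.67 and 7.58 CPM in T3 and T4, against 53.1, 49.4, 37.5 and 40.7 CPM in T1 and T2, with the T1 samples the higher pair. LOC106605366 takes its name from CD83, a surface protein of mature dendritic cells in mammals. It had 18.7, 14.7, 8.44 and 10.5 CPM in T3 and T4, against 38.1, 44.2, 58.2 and 62.2 CPM in T1 and T2.

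Next came hck, spic, rnt2 and nkl. hck encodes a Src-family kinase of myeloid cells and measured 43.8, 54.6, 44.0 and 54.5 CPM in T3 and T4, against 151, 218, 127 and 135 CPM in T1 and T2. spic encodes an ETS-family transcription factor needed for red pulp macrophages in mouse, and stood at 14.7, 18.1, 14.4 and 22.7 CPM in T3 and T4, against 56.6, 81.5, 46.7 and 49.6 CPM in T1 and T2. In both genes T1 sample 2 was the highest sample. rnt2, a ribonuclease of the T2 family, gave 12.1, 16.0, 12.5 and 17.3 CPM in T3 and T4, against 65.4, 48.0, 38.2 and 36.2 CPM in T1 and T2. nkl, which encodes NK-lysin, a pore-forming peptide of cytotoxic lymphocytes, had 4.61, 12.9, 7.98 and 10.8 CPM in T3 and T4, against 58.4, 58.0, 40.0 and 35.9 CPM in T1 and T2. For both rnt2 and nkl the T1 samples were the higher pair.

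The transporters and adaptors were less abundant. LOC106565344 is named after a sodium- and chloride-dependent carrier that takes up the transmitter GABA. It measured 9.80, 6.45, 9.35 and 7.94 CPM in T3 and T4, against 36.5, 37.7, 31.9 and 33.7 CPM in T1 and T2. s38a3, a glutamine transporter of the SLC38 family, had 14.1, 15.3, 13.5 and 9.75 CPM in T3 and T4, against 31.4, 36.6, 33.7 and 33.0 CPM in T1 and T2. Within T1 and T2 the values of these carriers differed little. LOC106609366, related to adaptors that bring substrates to cullin-3 ubiquitin ligases, measured 4.32, 3.38, 1.60 and 4.33 CPM in T3 and T4, against 15.8, 34.9, 23.9 and 15.1 CPM in T1 and T2. tdrp measured 6.34, 4.91, 3.42 and 3.97 CPM in T3 and T4, against 23.1, 37.0, 24.2 and 24.5 CPM in T1 and T2. Of the remaining well expressed named genes, LOC106608840, named for the ubiquitin ligase ANKIB1, had 36.3, 39.6, 32.9 and 20.9 CPM in T3 and T4, against 91.1, 97.8, 149 and 139.8 CPM in T1 and T2. LOC106606240, which is named only for its similarity to a fish venom subunit (stonustoxin subunit beta-like), had 11.8, 12.3, 5.48 and 11.9 CPM in T3 and T4, against 26.5, 26.3, 44.9 and 25.5 CPM in T1 and T2.

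Unnamed loci included the widest separations. LOC106594998 was at 2.88, 0, 1.60 and 2.89 CPM in T3 and T4, against 23.6, 21.4, 45.3 and 34.5 CPM in T1 and T2, a ratio of 7.42 between its lowest high and its highest low sample. LOC106602156 followed with 6.92, 5.53, 5.93 and 6.86 CPM in T3 and T4, against 34.0, 36.6, 48.8 and 59.5 CPM in T1 and T2, a ratio of 4.92. The ratio was above 3 in 12 of the 54 genes. At the other end, LOC106577663, LOC106610455 and LOC106565475 passed with ratios of 2.02, 2.02 and 2.00. Just outside stood crtam (1.9998), which encodes a receptor of activated cytotoxic T and NK cells, LOC106612453 (1.9969) and LOC106593018 (1.9830). crtam measured 4.90, 6.14, 4.33 and 4.69 CPM in T3 and T4, against 21.7, 21.4, 12.3 and 22.1 CPM in T1 and T2, and fell short through T2 sample 1. The threshold thus divides genes of almost equal separation.

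Where in the gill these genes were transcribed was not used in choosing them and was tested on the T1 and T2 nuclei. Nuclei were clustered without the 54 genes, and named only where markers of 1 cell type led. The T cell-like nuclei of a finer clustering, described below, are an exception. UMIs of each class were compared with those of all other nuclei of the same samples (edgeR quasi-likelihood test, sample as a block, adjusted p below 0.01). Every one of the 54 genes was higher in at least 1 of the 14 classes or clusters, as were 66.2% of all genes tested in any. By the rule the 54 genes had 10 CPM or more in each of these samples, a floor not set for the other genes tested. The shares of all genes given here are therefore not matched in abundance. What part abundance has in any excess over them was not tested. Pavement cell-like nuclei held the most, with 23 of the 54 genes higher there (19.3% of all genes tested were), but 27 were lower there (21.6% of all genes). Cluster 13, unnamed and with 3 of 11 detected dendritic or myeloid markers (csf3r, itgae and mpeg1), had 16 (8.05% of all genes), and cluster 7, an unnamed cluster with 2 of 6 pavement cell markers, also had 16 (11.1%). Dendritic or myeloid-like nuclei had 12 (8.16%), cluster 1, in which markers of several blood and immune cells were mixed, had 11 (11.6%) and goblet cell-like nuclei had 7 (8.22%). Ionocyte-like nuclei had 9, 16.7% of the 54 genes and close to the 15.1% of all genes, while 26 were lower there (15.7% of all genes). The remaining counts were small, with 2 genes in cluster 12 (2.37%), 2 in cluster 6 (6.21%) and 1 in cluster 16 (1.92%). None was higher in clusters 3 (14.1%), 4 (8.01%), 11 (7.39%) or 14 (3.82%). Lower calls were 23 in cluster 3 (13.8% of all genes), 23 in cluster 4 (9.48%), 19 in cluster 6 (9.34%), 13 in cluster 11 (10.1%), 11 in cluster 14 (4.98%) and 10 in cluster 12 (4.83%). There were 12 in cluster 1 (15.4%), 10 in cluster 13 (11.1%) and 13 in dendritic or myeloid-like nuclei (13%). The rest were 15 in cluster 7 (13.2%), 13 in goblet cell-like nuclei (11.2%) and 3 in cluster 16 (4.26%).

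**Figure D2:**
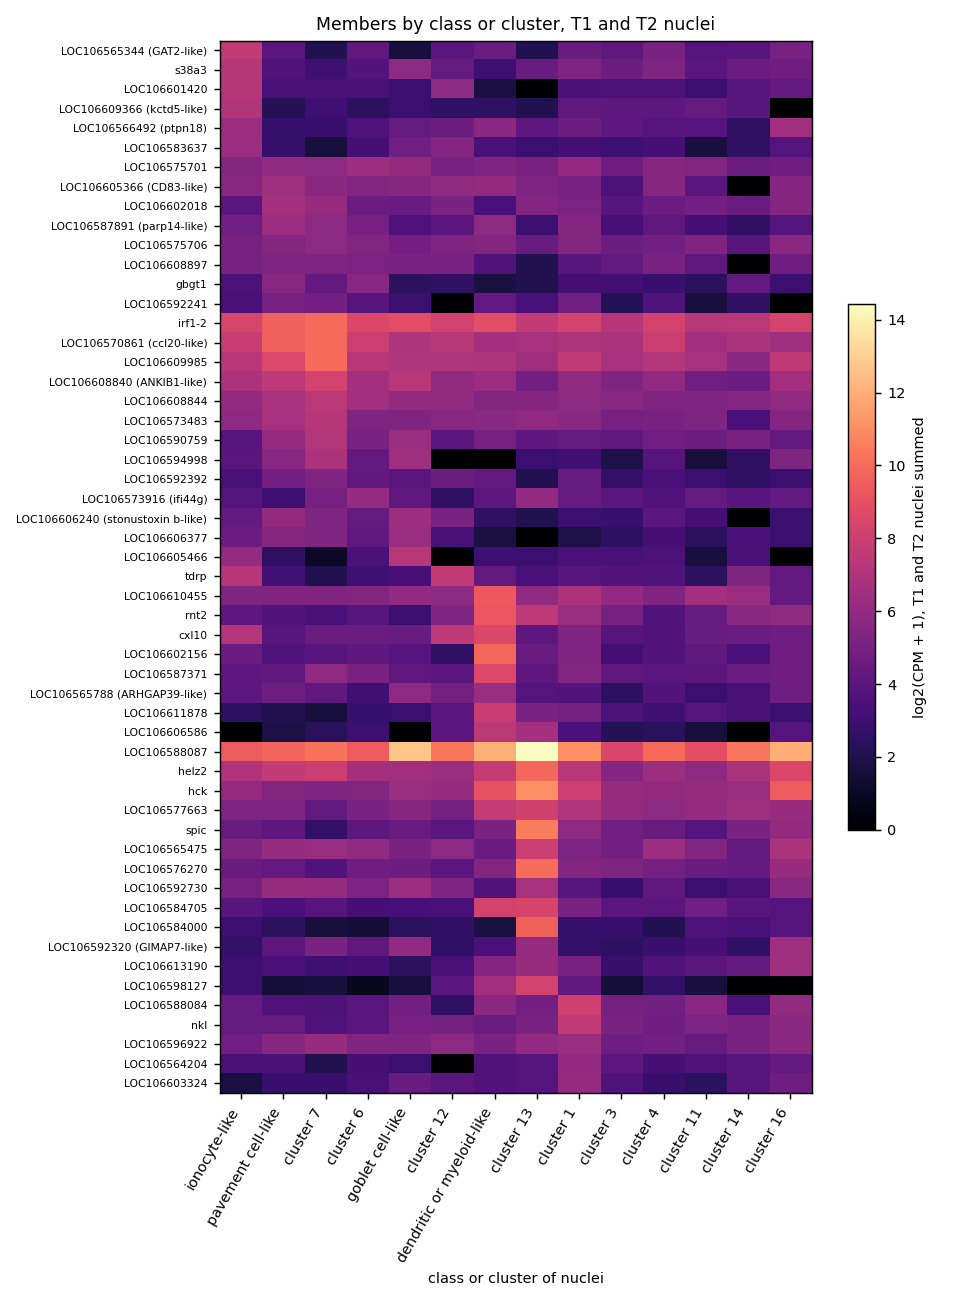
Level of each of the 54 genes (rows) in 14 nuclei classes or clusters (columns), as log2(CPM + 1) over the summed T1 and T2 nuclei of the class. Blocks of bright cells mark the genes highest in ionocyte-like nuclei, in pavement cell-like nuclei and cluster 7, in dendritic or myeloid-like nuclei, and in clusters 13 and 1, and LOC106588087 is bright in most columns.

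By the class in which each gene reached its highest called level, 6 genes were assigned to ionocyte-like nuclei, 8 to pavement cell-like nuclei, 9 to cluster 7, 13 to cluster 13, 8 to dendritic or myeloid-like nuclei, 5 to cluster 1, 3 to goblet cell-like nuclei and 1 each to clusters 6 and 12. LOC106575701, LOC106575706, LOC106566492, LOC106613190 and LOC106592320 had a higher level in another class or cluster, where they were not called. Genes grouped by role were not all placed alike. irf1-2 was highest in cluster 7 (log2 fold change 1.36 ± 0.18 SE, adjusted p = 1.3e-12) and also high in pavement cell-like nuclei (1.42 ± 0.14, adjusted p = 5e-08), which held 45.1% of its UMIs. LOC106570861 was called in the same pair, at 1.72 ± 0.18 in cluster 7 (adjusted p = 3.1e-19) and 1.76 ± 0.16 in pavement cell-like nuclei (adjusted p = 1.6e-08), and 55.5% of its UMIs came from pavement cell-like nuclei. The CD83 antigen-like gene LOC106605366 was called higher in pavement cell-like nuclei alone among the 14 (1.41 ± 0.15, adjusted p = 2.2e-07), where 46.1% of its UMIs lay, against 3.9% in dendritic or myeloid-like nuclei. LOC106587891 was likewise called in pavement cell-like nuclei alone (1.82 ± 0.18, adjusted p = 6.3e-08).

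The chemokine cxl10 stood highest in dendritic or myeloid-like nuclei (3.12 ± 0.24, adjusted p = 8.7e-37) yet was also called in ionocyte-like nuclei (1.94 ± 0.18, adjusted p = 1.4e-14), which held 29.6% of its UMIs. rnt2 was highest in dendritic or myeloid-like nuclei (4.11 ± 0.25, adjusted p = 4.2e-59), as was the unnamed LOC106602156 (5.48 ± 0.28, adjusted p = 1.3e-82). spic (5.62 ± 0.24, adjusted p = 5.9e-118) and hck (4.10 ± 0.24, adjusted p = 8.2e-65) were highest in cluster 13, and so was helz2 (2.39 ± 0.21, adjusted p = 1.2e-27), although pavement cell-like nuclei held more of its UMIs (33.9%). The long non-coding RNA LOC106584000 was the most sharply placed of the set, with 80.4% of its UMIs in cluster 13 (7.18 ± 0.26, adjusted p = 1.2e-163). It was singled out after its values were seen. In ionocyte-like nuclei the leading genes were LOC106609366 (3.76 ± 0.21, adjusted p = 6.1e-24), LOC106565344 (3.59 ± 0.18, adjusted p = 1.2e-26) and s38a3 (2.78 ± 0.18, adjusted p = 1.9e-21). tdrp reached its highest level in cluster 12, which carried 4 of 12 ionocyte markers, but 54.8% of its UMIs lay in ionocyte-like nuclei (3.45 ± 0.19, adjusted p = 6.7e-25).

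nkl was highest in cluster 1 (3.08 ± 0.21, adjusted p = 1.9e-11). That cluster joined all 12 T cell, all 15 erythrocyte and all 6 detected cytotoxic lymphocyte markers with 7 of 11 dendritic or myeloid and 3 of 6 B cell markers, so a finer clustering (resolution 0.8 in place of 0.3) was used to set T cell-like nuclei apart. These were finer clusters 3 and 18, both of which also carried cytotoxic markers and the first B cell markers. Finer cluster 2, with 1665 nuclei, carried T cell markers together with cytotoxic lymphocyte, dendritic or myeloid and erythrocyte markers and was left out. It made up 4.67 to 14.1% of nuclei in T3 and T4, against 4.13 to 11.4% in T1 and T2. In T cell-like nuclei 6 of the 54 genes were higher than in all other nuclei, 11.1% of the set against 12.2% of all genes, and 26 were lower (18.8% of all genes). Among the higher ones were nkl (3.26 ± 0.20, adjusted p = 1.8e-55) and the unnamed LOC106588084 (3.76 ± 0.21, adjusted p = 1e-66), LOC106603324 (3.10 ± 0.27, adjusted p = 3.4e-28) and LOC106564204 (2.59 ± 0.28, adjusted p = 9.7e-19). In the Ssal_v3.1 gene order nkl and LOC106564204 were separated by 2 genes. Other neighbouring pairs lay directly next to each other. LOC106608840 and the long non-coding RNA LOC106608844 were both highest in cluster 7. LOC106592730 and LOC106592320 were both assigned to cluster 13. However, LOC106592320 had 83.1 CPM in cluster 16, where it was not called, against 66.9 CPM in cluster 13 (T1 and T2 nuclei).

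Levels within a class show how far the genes were low among nuclei grouped together. They come from the contrast that chose the genes and are given with no test. In its assigned class, each of the 54 genes had a lower mean in T3 and T4 than in T1 and T2. In 37 of them every T3 and T4 sample lay below every T1 and T2 sample. All 6 genes of ionocyte-like nuclei were separated in this way, with a median log2 ratio of −2.25 (4.3% of all genes measured in that class, whose median was 0.08), as did all 8 of pavement cell-like nuclei at −2.34 (3.58%, median of all genes 0.14) and all 9 of cluster 7 at −2.37 (3.21%, median 0.19). Ionocyte-like nuclei joined clusters 5 and 15, and the split between them moved, with cluster 15 making up 8.79, 14.6, 22.6 and 11.2% of these nuclei in T3 and T4, against 22.7, 18.0, 28.6 and 34.9% in T1 and T2. In cluster 5 alone all 6 genes were again separated, with a median log2 ratio of −2.60, whereas in cluster 15 only LOC106566492 and LOC106583637 were, and LOC106601420 and LOC106609366 had 0 UMIs there in T3 and T4 and 3 and 1 in T1 and T2. Pavement cell-like nuclei joined clusters 2 and 8, and all 8 genes were separated in each, at medians of −2.56 and −2.45. For clusters 2, 5, 8 and 15 taken alone no share of all genes was computed, so their counts stand without a background. The single gene of cluster 6, LOC106573916, was also separated, at −2.67 (2.68%).

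In cluster 13, cluster 1 and the dendritic or myeloid-like and goblet cell-like nuclei the samples of several genes overlapped. Some of these classes were small in T3 and T4, with 26, 45, 18 and 37 nuclei in cluster 13. Dendritic or myeloid-like nuclei numbered 21, 72, 30 and 34 in these samples, against 586, 473, 570 and 500 pavement cell-like nuclei. What part counting error has in the overlap was not tested. Of the 13 genes of cluster 13, 4 were separated and the median log2 ratio was −0.59 (2.81%, median of all genes −0.07). Among the 13, LOC106592320 had no UMI there in T3 and T4, against 21 UMIs in T1 and T2, and is not in that median. In dendritic or myeloid-like nuclei 5 of the 8 genes were separated, with a median of −1.30 (3.58%, median of all genes −0.11), and 3 of the 5 of cluster 1, with a median of −1.67 (5.59%, median −0.06). For goblet cell-like nuclei the count was 1 of 3, at −1.31 (3.41%), and tdrp in cluster 12 was not separated, at −1.68 (2.79%). These percentages are the share of all genes with 20 UMIs or more in the class whose T3 and T4 samples all lay below the T1 and T2 samples, and nothing about the genes is read from them because the rule used the same contrast.

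Among ionocyte-like nuclei, LOC106565344 had 42.4, 33.3, 63.4 and 44.7 CPM in T3 and T4, against 235, 185, 151 and 231 CPM in T1 and T2. In cluster 15 this gene had 169, 123, 199 and 398 CPM in T3 and T4, against 381, 231, 343 and 360.0 CPM in T1 and T2, on 4 to 11 and 14 to 46 UMIs, and T4 sample 2 was the highest of the 8. In cluster 5 it had 31.8, 23.5, 28.5 and 12.99 CPM in T3 and T4, against 191, 176, 84.6 and 158 CPM in T1 and T2. The genes of ionocyte-like nuclei thus did not all behave alike in both clusters. s38a3 had 32.6, 45.4, 22.7 and 11.9 CPM in T3 and T4, against 137, 149, 148 and 149 CPM in T1 and T2. LOC106609366 was at 22.9, 12.1, 0 and 11.9 CPM in T3 and T4, against 83.5, 197, 169.9 and 87.2 CPM in T1 and T2. The low side of these values rests on few UMIs, 53, 34 and 15 over the 4 T3 and T4 samples for these genes in turn. tdrp in ionocyte-like nuclei had 0, 3.03, 4.53 and 5.96 CPM in T3 and T4, against 122, 174, 144 and 155 CPM in T1 and T2, from 0, 1, 1 and 2 UMIs against 41, 63, 39 and 55. The gap of tdrp was thus wider among these nuclei than in the whole samples. cxl10 was low there too, at 52.2, 9.08, 18.1 and 11.9 CPM in T3 and T4, against 197, 105, 129 and 118 CPM in T1 and T2.

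**Figure D3:**
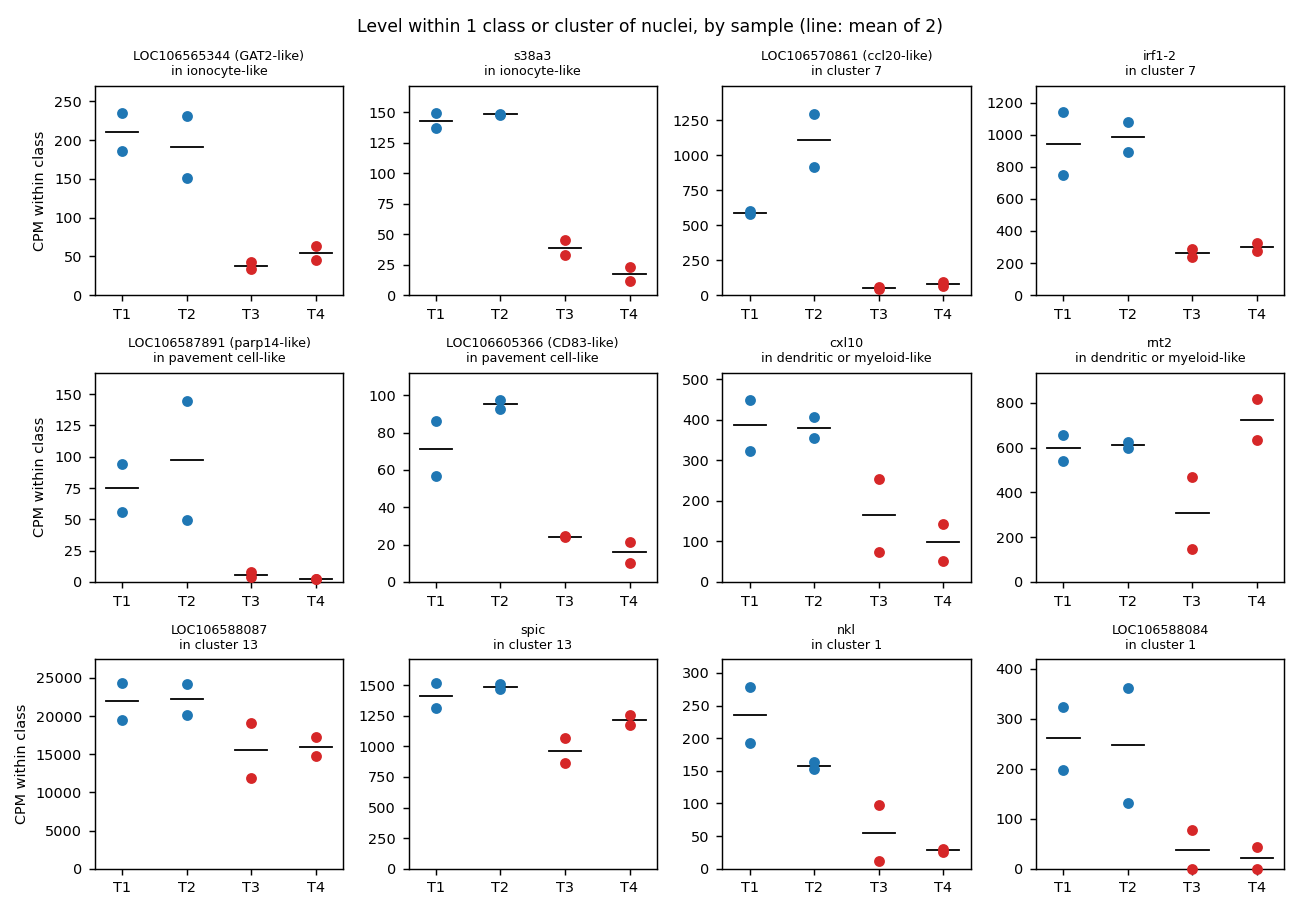
Level of 12 of the genes within a single class or cluster of nuclei, in CPM of that class (vertical axes from 0), for the 2 samples of each time point T1 to T4 (points) and their mean (line), with T1 and T2 in blue and T3 and T4 in red. The colours stay apart for LOC106565344, s38a3, LOC106570861, irf1-2, LOC106587891, LOC106605366, cxl10, LOC106588087, spic, nkl and LOC106588084 and overlap for rnt2, which had 148, 470.5, 633 and 817 CPM in T3 and T4 against 542 to 657 CPM in T1 and T2.

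In cluster 7, LOC106570861 measured 42.3, 56.1, 67.4 and 95.3 CPM in T3 and T4, against 602, 576, 917 and 1298 CPM in T1 and T2, on 57 and 949 UMIs. Among pavement cell-like nuclei the same gene had 49.1, 32.7, 38.9 and 22.9 CPM in T3 and T4, against 340.3, 355, 705 and 1389 CPM in T1 and T2. The higher level of T2 was thus seen in both. irf1-2 in cluster 7 had 291, 235, 272 and 326 CPM in T3 and T4, against 748, 1143, 894 and 1082 CPM in T1 and T2, with no such step between T1 and T2. LOC106587891 among pavement cell-like nuclei had 7.70, 4.09, 1.99 and 2.70 CPM in T3 and T4, against 55.6, 94.5, 145 and 49.2 CPM in T1 and T2. LOC106605366 there had 24.1, 24.5, 9.97 and 21.6 CPM in T3 and T4, against 56.6, 86.1, 92.8 and 97.6 CPM in T1 and T2. helz2 was low in pavement cell-like nuclei as well, with 61.6, 58.6, 35.9 and 83.7 CPM in T3 and T4, against 175, 199, 281 and 182 CPM in T1 and T2, whereas in cluster 13 its samples came closer, with 516, 762, 179.9 and 643 CPM in T3 and T4, against 758, 972, 984 and 1042 CPM in T1 and T2. The cluster 13 values rest on 9, 25, 2 and 17 UMIs, against 73, 99, 47 and 71.

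Within cluster 13, spic was at 861, 1067, 1259 and 1173 CPM in T3 and T4, against 1309, 1521, 1465 and 1512 CPM in T1 and T2. hck had 1319.6, 1524, 1889 and 1476 CPM in T3 and T4, against 1714, 2601, 2156 and 2348 CPM in T1 and T2, so that T4 sample 1 overlapped the high samples. The difference within this cluster was therefore smaller than in the whole samples for both genes, with a log2 ratio of −0.41 for spic and −0.51 for hck, against −1.74 and −1.68 over all nuclei. rnt2 in dendritic or myeloid-like nuclei had a log2 ratio of −0.23 and overlapping samples, with T4 sample 2 the highest of the 8. Its T3 and T4 values there rest on 2, 24, 12 and 17 UMIs. LOC106602156 behaved otherwise in the same class, with 148, 216, 0 and 192 CPM in T3 and T4, against 540.5, 750.1, 932 and 1559.6 CPM in T1 and T2. The low side of LOC106602156 rests on 2, 11, 0 and 4 UMIs.

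LOC106588087, the most abundant of the genes, was highest in cluster 13 and also called in goblet cell-like nuclei (1.71 ± 0.21, adjusted p = 2.3e-14). It had 11933, 19142, 14751 and 17253 CPM in cluster 13 in T3 and T4, against 19523, 24303, 20118 and 24245 CPM in T1 and T2, which is more than 1% of the UMIs of that cluster in every sample. In goblet cell-like nuclei it had 2499.8, 2339.6, 2600.3 and 3297 CPM in T3 and T4, against 5997, 7157, 5636 and 6623 CPM in T1 and T2. The samples stood apart in both. No name or product was found for this locus.

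Among T cell-like nuclei of the finer clustering, nkl had 0, 147, 0 and 70.8 CPM in T3 and T4, against 341, 332, 294 and 212 CPM in T1 and T2. LOC106588084 had 0, 139, 0 and 99.1 CPM in T3 and T4, against 232, 650.5, 245 and 483 CPM in T1 and T2. The same pair of samples, T3 sample 1 and T4 sample 1, had no UMI of either gene in these nuclei, and T3 sample 2 and T4 sample 2 had 17 and 5 UMIs of nkl and 16 and 7 of LOC106588084. In the whole samples, LOC106588084 was at 0, 14.4, 1.37 and 15.2 CPM in T3 and T4, against 38.9, 91.5, 34.7 and 58.8 CPM in T1 and T2.

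The shares of the nuclei classes moved as well, and their values belong beside those above. Dendritic or myeloid-like nuclei made up 0.79, 3.03, 1.06 and 1.71% of the nuclei of the T3 and T4 samples, against 9.16, 5.40, 2.37 and 8.01% in T1 and T2, with T2 sample 1 below T3 sample 2. Cluster 13 made up 0.978, 1.89, 0.638 and 1.86% in T3 and T4, against 4.16, 4.54, 2.46 and 3.20% in T1 and T2. T cell-like nuclei were at 5.08, 6.40, 3.75 and 4.18% in T3 and T4, against 21.3, 15.4, 4.24 and 24.4% in T1 and T2, and T2 sample 1 overlapped the low samples. Cluster 1 was at 19.0, 11.3, 11.4 and 11.3% in T3 and T4, against 26.6, 27.0, 13.5 and 33.2% in T1 and T2, again overlapping through T2 sample 1. Goblet cell-like nuclei were at 2.44 to 6.57% in T3 and T4, against 5.01 to 7.97% in T1 and T2. The remaining classes assigned more than 1 of the genes overlapped between the groups. Ionocyte-like nuclei made up 6.91 to 12.99% in T3 and T4, against 7.21 to 11.5% in T1 and T2, pavement cell-like nuclei 19.9 to 25.2% against 8.78 to 29.3%, and cluster 7 4.73 to 7.37% against 2.02 to 8.78%. Within the ionocyte-like class, however, cluster 15 alone was separated, at 0.903, 1.43, 1.56 and 1.46% of all nuclei in T3 and T4, against 2.14, 2.07, 2.55 and 2.52% in T1 and T2. Clusters 3, 4 and 11, in which none of the 54 genes was called higher, had larger shares in every T3 and T4 sample than in any T1 and T2 sample, at 9.97 to 15.5%, 9.37 to 13.96% and 4.63 to 4.88%, against 4.35 to 8.93%, 5.28 to 7.04% and 1.77 to 2.57%.

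**Figure D4:**
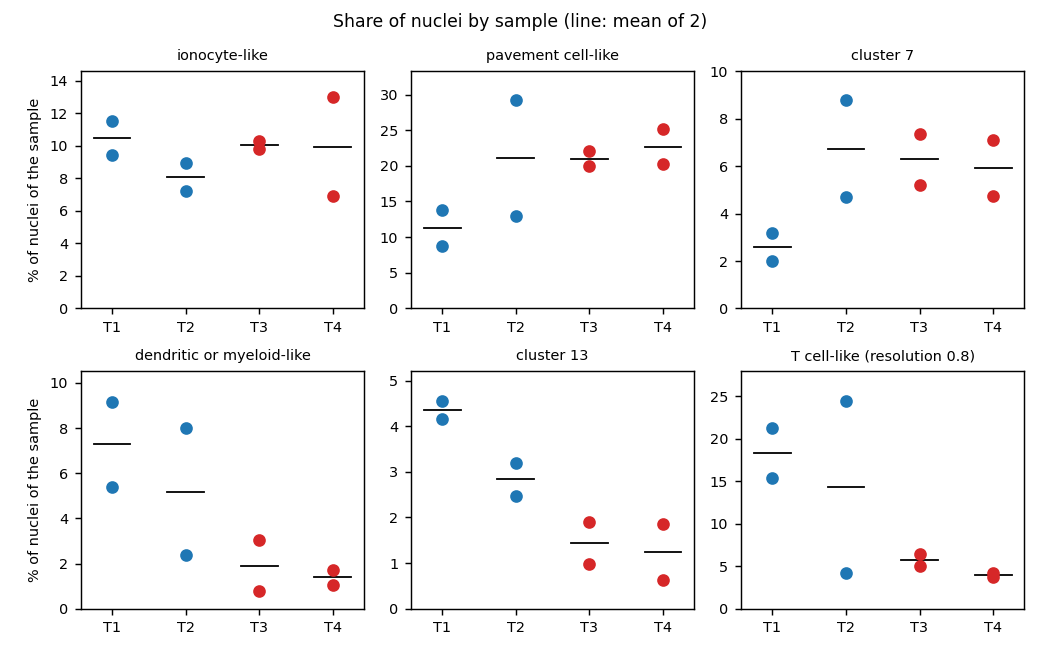
Share of all nuclei of a sample (%, vertical axes from 0) in 6 classes or clusters, for the 2 samples of each time point T1 to T4 (points) and their mean (line), with T1 and T2 in blue and T3 and T4 in red. In cluster 13 all T3 and T4 samples (0.638 to 1.89%) lie below all T1 and T2 samples (2.46 to 4.54%), while the ionocyte-like, pavement cell-like and cluster 7 shares overlap.

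To set the 2 quantities side by side, the level each gene would have if it kept its T1 and T2 mean within every class and only the UMI shares of the classes took their T3 and T4 values was computed. Under the shares alone the median log2 ratio was −0.14, with a range of −1.21 to 0.03, against a measured median of −1.89. The computation was made for the 54 genes alone, so no share of all genes stands beside its counts. The computed level was lower than that of T1 and T2 in 52 of the 54 genes, and it reached at least 50% of the measured log2 ratio in 2. Both were highest in cluster 13, LOC106584000 (−1.21 computed, −1.99 measured) and LOC106598127 (−1.06 computed, −1.89 measured). For spic the computed value was −0.84 against −1.74 measured, for hck −0.69 against −1.68 and for rnt2 −0.68 against −1.70. For genes highest in cluster 7 or ionocyte-like nuclei it was close to 0, with −0.05 for LOC106570861 (−3.51 measured), −0.11 for irf1-2 (−1.61 measured), −0.04 for LOC106565344 (−2.06 measured) and −0.05 for s38a3 (−1.35 measured). The computation keeps the T1 and T2 level in every class, also where that level may come from free RNA, which was not removed. Outside cluster 13, spic had 5.19 to 64.0 CPM over the classes and clusters tested (T1 and T2 nuclei). Cluster 13 itself held 0.254 to 1.01% of UMIs in T3 and T4, against 1.68 to 3.52% in T1 and T2. What part free RNA has in the computed values was not tested. The computation also does not see changes in share within a class, such as that of cluster 15. Its share of UMIs was 0.684 to 1.03% in T3 and T4, against 2.09 to 3.17% in T1 and T2. Repeated over the 17 clusters in place of the classes, an alternative chosen after seeing the data, the computation gave a median of −0.17 with a range of −1.21 to 0.15. LOC106565344 then had −0.14 in place of −0.04, LOC106566492 −0.29 in place of −0.14 and s38a3 0.01 in place of −0.05, and 2 genes again reached 50% of the measured ratio.

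**Figure D5:**
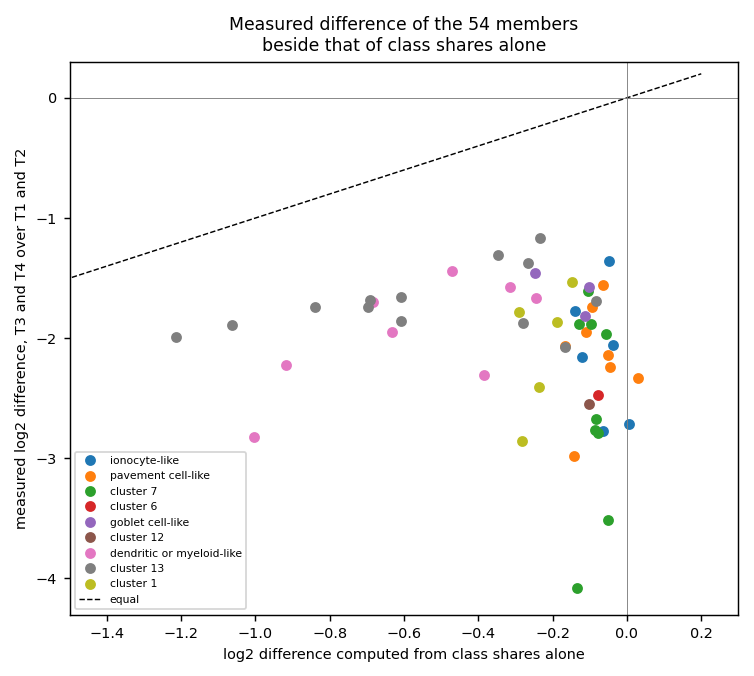
Measured log2 ratio of the T3 and T4 mean over the T1 and T2 mean (vertical axis) of the 54 genes, plotted against the ratio computed from class shares alone (horizontal axis). Each gene is 1 point, coloured by its assigned class or cluster, with equality as a dashed line. All points lie below the dashed line, and those farthest to the left, down to −1.21, belong to cluster 13 and to dendritic or myeloid-like nuclei.

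Markers of the leukocyte types were lower over whole samples too. The 12 T cell markers summed to 89.7 to 145 CPM in T3 and T4 samples, against 163 to 316 CPM in T1 and T2 samples, and 6 of 12 were called lower. The 14 dendritic or myeloid markers, of which LOC106605366 is one, summed to 480.4 to 646 CPM in T3 and T4, against 868 to 1035 CPM in T1 and T2, and 7 of 12 tested were called lower. LOC106605366 is low by the rule and was called higher in pavement cell-like nuclei alone, and without it 6 of 11 were lower. The cytotoxic lymphocyte markers, of which nkl is one, summed to 35.4 to 48.8 CPM in T3 and T4, against 99.6 to 149.9 CPM in T1 and T2. Among them, eomes was unlisted in every T3 and T4 sample and entered as 0, so it may have been seen there in fewer than 3 nuclei. Goblet cell markers were also lower, at 278 to 329 CPM in T3 and T4, against 359 to 448 CPM in T1 and T2. Of these 6 markers, 1 was called lower and 0 higher. Markers of some other types were higher. Pillar cell markers summed to 8800.1 to 12954 CPM in T3 and T4, against 2437 to 4941 CPM in T1 and T2, with 7 of 14 called higher, vascular cell markers to 1369.7 to 2071 against 662 to 921 CPM, with 2 of 13 higher, and ionocyte markers to 5248 to 6249 against 2507 to 4442 CPM, with 2 of 12 higher and 1 lower. Pavement cell markers summed to 12860.0 to 15469.9 CPM in T3 and T4, against 12039 to 22096 CPM in T1 and T2, and none of 6 was called. The part of these cell types in the levels of the 54 genes over whole samples was not tested beyond the computation from class shares.

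Further contrasts ask whether the genes also moved under the short photoperiod, T2 against T1, or under seawater, T4 against T3. The rule did not use these differences, but it used the values of the same samples. It set a floor for every T1 and T2 sample and, relative to them, a ceiling for every T3 and T4 sample. Genes with a strong fall in a T1 or T2 sample, or a strong rise in a T3 or T4 sample, could therefore be left out. What part this has in the counts and medians below was not tested. With the edgeR quasi-likelihood test and Benjamini-Hochberg adjustment over 24815 genes, none of the 54 was called in either contrast at an adjusted p of 0.01. Across all genes, T2 against T1 gave 1 gene higher (0.00403%) and 0 lower (0.0%), and T4 against T3 gave 0 higher and 0 lower (0.0% each), so the 2 contrasts called almost nothing anywhere. At an unadjusted p under 0.05, 10 of the 54 passed in T2 against T1 (7.06% of all genes did) and 3 in T4 against T3 (2.03% of all genes). The median log2 fold change of the 54 was 0.12 for T2 over T1, against −0.02 over all genes, with 34 positive and 20 negative, and −0.15 for T4 over T3, against 0.00 over all genes, with 20 positive and 34 negative.

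The gene nearest to a call was LOC106570861, the C-C motif chemokine 20-like gene, with a log2 fold change of 1.80 ± 0.34 (SE) for T2 over T1 and an adjusted p of 0.19 (edgeR). DESeq2 called it (adjusted p = 5.6e-05), and so did edgeR without a filter on low counts (adjusted p = 6.2e-07), and over all alternatives its adjusted p ranged from 6.2e-07 to 0.43. LOC106590759, an unnamed gene of cluster 7 and pavement cell-like nuclei, followed at 1.15 ± 0.33 (adjusted p = 0.48, edgeR), and was called only without the filter (0.0036, range over the alternatives 0.0036 to 0.83). It measured 57.2 and 63.0 CPM in T2 samples, against 30.3 and 25.2 CPM in T1 samples. At the negative end stood LOC106611878 at −0.68 ± 0.28, rnt2 at −0.58 ± 0.26 and nkl at −0.57 ± 0.32, all with adjusted p of 0.68 or more (edgeR). DESeq2 called none of the 54 in T4 against T3, where the edgeR log2 fold changes ran from −0.98 ± 0.52 (LOC106601420) to 0.53 ± 0.83 (LOC106594998), each with an adjusted p of 1.0.

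The wider setting of these genes was read from gene lists tested in T3 and T4 against T1 and T2. The dendritic or myeloid and cytotoxic lymphocyte lists hold the same genes as the markers summed above. All the T cell markers lie within the T cell receptor signalling list. Calls in these lists repeat the marker calls in whole or in part and are not a second result. In that contrast edgeR called 401 of 24815 genes higher (1.62%) and 720 lower (2.9%), and 52 of the 54 genes were among the lower ones, which the rule itself brings about. Of 19 interferon response genes tested, 8 were lower and 0 higher, with a median log2 fold change of −0.87 against 0.01 over all genes. irf1-2 is 1 of the 8, and without it 7 of 18 were lower (median −0.86). Outside the 54, dhx58, a cytosolic sensor of viral RNA, fell by 1.60 ± 0.19 on the log2 scale (adjusted p = 0.0012, edgeR), irf7, a regulator of type I interferon genes, by 1.40 ± 0.16 (adjusted p = 0.00097) and mx2, an antiviral GTPase, by 1.20 ± 0.18 (adjusted p = 0.003). Their levels were 11.2 to 21.3, 9.35 to 13.8 and 7.30 to 11.7 CPM in T3 and T4 samples, against 33.3 to 49.3, 24.1 to 35.7 and 16.8 to 31.4 CPM in T1 and T2 samples for these genes in turn.

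Of 16 antigen presentation genes 6 were lower and 0 higher (median −1.09). b2m, the light chain of MHC class I, had 443, 423, 564 and 189 CPM in T3 and T4, against 1337, 1095, 1654 and 1609 CPM in T1 and T2 (log2 fold change −1.86 ± 0.31, adjusted p = 0.0044, edgeR). Of 20 T cell receptor signalling genes 9 were lower and 0 higher (median −1.20), among them cd3e, a chain of the receptor complex (−1.48 ± 0.25, adjusted p = 0.0049), and prkcq, a kinase acting after it (−1.54 ± 0.22, adjusted p = 0.0025). Of 7 cytotoxic lymphocyte genes 4 were lower and 0 higher (median −1.63), and without nkl, which the rule brought in, 3 of 6 were lower (median −1.40), including crtam (−2.01 ± 0.24, adjusted p = 0.0012) and the perforin-1-like LOC106577765 (−1.76 ± 0.29, adjusted p = 0.0043). Of 12 dendritic or myeloid genes 7 were lower (median −1.28), or 6 of 11 without LOC106605366 (median −1.18), and of 5 B cell genes 2 (median −0.80), blnk, an adaptor of B cell receptor signalling, among them (−1.71 ± 0.30, adjusted p = 0.0062). In each of these immune lists the share called lower was above the 2.9% of all genes. The lists were written with earlier results of these data known, so nothing about immune genes is read from that excess. DESeq2 called 8, 4, 7 and 1 lower in the T cell receptor, cytotoxic, dendritic or myeloid and B cell lists. It called 9 lower in antigen presentation and 11 in interferon response, and 0 higher in any of these lists. At an unadjusted p under 0.05 edgeR had 1 gene higher in the T cell receptor signalling list, 1 in the B cell list and 0 in the other 4.

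The other lists held few calls. Of 23 circadian clock genes 1 was higher, the cryptochrome-1-like LOC106565112 (1.73 ± 0.32, adjusted p = 0.0067, edgeR), and 0 were lower. It was at 55.6, 114, 55.2 and 129.96 CPM in T3 and T4, against 48.3, 39.7, 12.3 and 16.9 CPM in T1 and T2, so that T3 sample 1 and T4 sample 1 lay near T1 and the wide gap was to T2. Of 16 hormone reception genes 2 were higher and 0 lower. They were fkbp5, a chaperone of the glucocorticoid receptor (2.14 ± 0.42, adjusted p = 0.0096), and a growth hormone receptor gene, LOC100136463 (1.51 ± 0.23, adjusted p = 0.0033). fkbp5 had 58.5, 141, 49.5 and 177 CPM in T3 and T4, against 52.8, 31.4, 12.3 and 12.6 CPM in T1 and T2, with T4 sample 1 below T1 sample 1. Freshwater ionocyte transport genes went both ways, with 3 of 15 higher and 2 lower. The sodium/potassium pump gene LOC106575572 was at 955, 1261, 1081 and 1088 CPM in T3 and T4, against 188, 336, 160.0 and 135 CPM in T1 and T2 (2.44 ± 0.21, adjusted p = 0.00034), the opposite direction to the 6 light-return low genes of ionocyte-like nuclei. For subunits of this pump the study reports NKAa1a suppressed and NKAa1b increased. Which of them LOC106575572 is was not settled here, and the list name does not make it a freshwater form. None of 21 cell cycle genes was called in either direction by edgeR or DESeq2, and at an unadjusted p under 0.05 edgeR had 3 higher and 0 lower.

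These list counts depend on single libraries. Without T4 sample 1 the lower calls over all genes fell to 127 and without T3 sample 2 to 147, and in either case 0 of the T cell receptor signalling genes were called lower. Over the 8 fits that leave out 1 library, lower calls numbered 0 to 11 for T cell receptor signalling, 0 to 1 for B cell, 2 to 5 for cytotoxic lymphocyte, 2 to 4 for dendritic or myeloid, 2 to 7 for antigen presentation and 3 to 6 for interferon response genes, and higher calls 0 for each of these lists. In the same fits higher calls numbered 0 to 1 for circadian clock, 0 to 3 for hormone reception and 2 to 3 for freshwater ionocyte transport genes, and lower calls 0 to 1 for the last, so its 2 lower calls were in no case both found. Leaving out a sample can only relax the rule that chose the 54 genes. Without T2 sample 1, 145 genes met it, and without T1 sample 2, 84 did.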

How the data were processed

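Gill nuclei were isolated and sequenced by the study with 10x Genomics 3' chemistry (v3). The authors aligned reads with Cell Ranger (3.0.1 in the submitters' processing notes) to ICSASG_v2 with NCBI Annotation Release 100 and deposited 1 table of UMI counts per sample; whether intronic reads were counted was not given in the sources used here. From the counts, UMIs were summed per sample over all barcodes and scaled to CPM, which set the 54 genes. Totals of 2770081 to 4383507 UMIs per sample set the precision. All 19709 nuclei were clustered with Seurat 5.3.0 (2000 variable genes without the 54 and without marker and hemoglobin genes, 30 dimensions, resolution 0.3). Named classes required fixed markers to lead, and clusters of 1 name were joined. Gene tests used edgeR 4.0.16 (R 4.3.3; quasi-likelihood, TMM, filterByExpr with minimum count 10, all 8 samples in 1 fit, threshold 0.01), with DESeq2 1.42.0 as an alternative, and class tests required 10 nuclei per sample. Both were tested on simulated data. Class levels were given for genes with 20 UMIs or more. Genes named with values were the 15 named ones with the highest T1 and T2 mean, the 5 with the largest ratio, the 3 on either side of the threshold and at most 3 called genes per list, and any other gene was named after its values were seen. The 54 genes, the lists and the tests were chosen with earlier results of these data known. Gene names came from the study's annotation and RefSeq (Ssal_v3.1). Left out were nuclei of cluster 17, which were too few, and the 5 loci excluded by the rule.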

Additional observations from a re-analysis of the deposited data

How the results depend on the processing

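Every alternative was planned except the use of single clusters in place of classes, which was chosen after seeing the data. The number of genes meeting the rule was 54 and moved to 211 with a ratio of 1.5 and to 12 with a ratio of 3. It was 59 with TMM scaling (49 of the 54 kept), 52 in nuclei with fewer than 2500 genes (38 kept), 66 and 36 with floors of 5 and 20 CPM, 53 without hemoglobin genes in the total, and 62 to 145 with 1 sample left out. In T2 against T1, 0 of the 54 genes were higher, against 1 with DESeq2 (LOC106570861) and 2 without a filter on low counts (LOC106570861 and LOC106590759), and 0 in every fit without 1 sample. Over all genes, T3 and T4 against T1 and T2 gave 401 higher and 720 lower calls, against 1269 and 1765 at a threshold of 0.05, 1376 and 1850 without the filter, 89 to 434 and 127 to 675 without 1 sample, and 460 lower calls in nuclei with fewer than 2500 genes. The numbers called higher in a class without 1 sample were 7 to 10 for cluster 1, 10 to 16 for cluster 7, 13 to 16 for cluster 13, 4 to 7 for goblet cell-like, 11 to 12 for dendritic or myeloid-like, 18 to 21 for pavement cell-like and 9 for ionocyte-like nuclei. Without integration cluster 1 had 7 in place of 11, and no cluster matched cluster 7, so no value was had. In cluster 15 alone 2 of the 6 genes of ionocyte-like nuclei had every T3 and T4 sample below every T1 and T2 sample, against 6 in cluster 5 alone. No share of all genes was computed for these clusters. The causes were not tested. The labels give no link between samples of the same number. Their deviations from the time point mean correlated at 0.20 between T3 and T4 and at −0.05 to 0.04 in the other pairs. What same-numbered T3 and T4 samples may share was not tested. With the replicate block 406 genes were higher and 671 lower over all genes. In that fit 0 of the 54 were called in T2 against T1 or T4 against T3. Depth limits the low side, where 10 of the 54 genes had fewer than 10 UMIs in a T3 or T4 sample.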
